A study of Oryza sativa with 6 samples.

Results

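The 2 arrays described here, of the 6 in the series, are those of wild-type rice of the cultivar ZH11, chosen by their titles as replicates 1 and 2. They measured the transcripts of nucellar projection cells in seeds at 3 days after flowering. The other 4 arrays came from A-OsMADS29 line 2 and A-OsMADS29 line 14, with 2 arrays each, which the labels call OsMADS29 mutants of the same ZH11 background. The labels give all samples as Oryza sativa and do not spell out the prefix of the line names. Plants of the 3 groups were grown alike, in a phytotron with 12 h of light at 26 °C and 12 h of dark at 18 °C. Cells were cut from seed sections by laser capture, a method in which a laser isolates chosen cells under the microscope, and their RNA was amplified in 2 rounds before 4 µg was labelled with Cy3. The design names 2 independent biological samples per group, without saying how many seeds or plants each holds.

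The nucellar projection is a maternal strip of the young cereal seed beside the vascular bundle of the ovule. It passes sugars and amino acids from the mother plant to the endosperm, the storage tissue that grows from the fertilised central cell. Together with the rest of the nucellus it is broken down as the endosperm expands. MADS-box proteins such as OsMADS29 are transcription factors, and many of them act in flowers and seeds.

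The array carried 41908 probes for 29690 loci, named by locus ID and without gene names or functions, and 510 probes for rice microRNA precursors. A level here is the processed signal on the log2 scale with that array's 75th percentile set to 0, so each step of 1 is a doubling. A probe was taken as detected where at least 0.5 of its spots carried the scanner software's mark for a signal well above background, and a locus where any of its probes was. The brightest probe over the wild-type arrays gave a locus its level. Probes differ in how strongly they bind, so the order of loci is one of signal and not of transcript number. The 75th percentile was a signal of 6724 on wild-type replicate 1 and 9245 on replicate 2, and 0 spots were saturated. The reference gene table matched 0 of the locus IDs, and the label of the tissue was not checked against marker genes. In bulk samples such as these, fewer cells of a type and less RNA per cell cannot be told apart.

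Most loci on the array gave a signal in wild-type nucellar projection cells. Both arrays detected 20779 loci, or 70.0%, and neither detected 6046, or 20.4%. A further 1332 loci (4.49%) were detected on replicate 1 only and 1513 (5.10%) on replicate 2 only, and 20 could not be evaluated on both because their spots were marked as outliers. The share of loci detected on 1 array of a pair was 7.78% in line 2 and 5.90% in line 14, against 9.58% in wild type. Of the 20779 loci detected on both wild-type arrays, 19395 (93.3%) were also detected on all 4 line arrays. Of the 153 spots of the negative control probe, 0.654% carried the same mark on replicate 1 and 1.31% on replicate 2. That is 1 probe, and the array's other control probes, given in a later section, reached higher shares. Those named genome were highest, at 10.8% of spots on replicate 1 and 9.17% on replicate 2. Of the 6046 loci detected on neither, 4637 (76.7%) were detected on no line array and 61 (1.01%) on all 4.

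All-or-none loci were few in every group. The lines' 4 arrays detected 61 loci that both wild-type arrays missed, and missed 85 that both wild-type arrays detected. The same counts for line 2 against the other 4 arrays were 2 missed and 123 detected alone, and for line 14 they were 205 missed and 16 detected alone. The wild-type counts thus lay between those of the lines, and they were not tested. Line 14 alone was on slide 2, so line and slide cannot be told apart there. The lowest level of a detected probe also differed by array. It was -8.16 and -9.76 in line 2 and -7.60 and -7.59 in line 14, against -8.31 and -8.49 in wild type. The part of this floor in the counts was not tested.

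OsMADS29, the gene that the lines are named for, was among the detected loci of wild type. Its locus, Os02g0170300, was set from general knowledge, and its 3' probe, tagged CDS+3'UTR, read -0.27 and 0.89 on the line 2 arrays, 0.17 and -0.00 on the line 14 arrays, against 0.38 and 0.88 on the wild-type arrays. The groups overlapped, and the wild-type mean of 0.63 ± 0.35 (SD, n = 2) lay above 83.2% of loci. A limma fit over 22282 loci and microRNA probes, with an adjusted p under 0.05 as the call, called 32 of them (0.144%) between the mean of the lines and wild type. The count of 32 was 0, 0, 2 and 0 with line 2 replicate 1, line 2 replicate 2, line 14 replicate 1 or line 14 replicate 2 left out, 1 without wild-type replicate 1 and 106 without wild-type replicate 2. OsMADS29 differed by -0.43 in that fit (SE 0.41, limma adjusted p = 0.876). That difference was -0.14 without line 2 replicate 1, -0.72 without line 2 replicate 2, -0.68 without wild-type replicate 1 and -0.18 without wild-type replicate 2. The probe at the 5' end of the same locus read -4.50 and -3.74 on the line 2 arrays, -4.08 and -4.43 on the line 14 arrays, against -4.63 and -3.42 on the wild-type arrays. Both probes were detected on all 6 arrays. What was altered in the lines, and whether either probe reads it, is not known here.

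The 100 brightest loci of wild type ranked no lower than place 593 and 621 on the line 2 arrays and 1309 and 434 on the line 14 arrays, against 126 and 164 on the wild-type arrays. The 100 were chosen by their wild-type levels, so high ranks on those arrays follow from the choice. The gap to the line arrays is thus no measure of a difference between the groups. The highest wild-type level belonged to Os05g0111300, with 8 probes, which read 6.34 and 5.63 on the line 2 arrays, 6.20 and 6.12 on the line 14 arrays, against 6.80 and 5.77 on the wild-type arrays. Its processed signal was 748079 on wild-type replicate 1 and 504924 on replicate 2, and the line arrays lay within the range of the wild-type arrays in 3 of 4 cases. The second was Os03g0726100, with 7 probes, at 6.17 and 5.81 on the line 2 arrays, 6.23 and 6.07 on the line 14 arrays, against 6.40 and 5.93 on the wild-type arrays. Its wild-type arrays differed by 0.47 and the groups overlapped.

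The 100 loci with the highest mean over the wild-type arrays were detected on all 6 arrays. They made up 11.5% of the summed signal over loci on wild-type replicate 1 and 9.97% on replicate 2, and the 1000 brightest of each array made up 44.4% and 40.9%. No small group of loci therefore held most of the signal, although signal near the top of the scale need not be proportional to transcript number. Of the 100, each line array's own top 100 held 84 and 74 in line 2 and 79 and 85 in line 14, against 87 on wild-type replicate 1 and 91 on replicate 2. The wild-type counts are high in part because those arrays chose the 100. The fit called 0 of the 100 different in the lines, where 0.144% of all features tested were called. At that share 0 of 100 is the likely count, so it does not show that the brightest loci were alike. Of the 100, 1 had an unadjusted limma p under 0.05, where 7.89% of all did. The 100 were also chosen by wild-type values that enter the fit. The other fits tried on all 6 arrays called 0 of the 100 too, which is no more telling. Probes that the names tag as mRNA, called cDNA probes here, stood for 94 of the 100.

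The 100 brightest loci lay on every chromosome, and whether their counts depart from an even share was not tested. Over all chromosomes they were 100 of the 20758 loci detected and measured on both arrays. Chromosome 3 held 18 of the 100, which is 0.660% of its loci detected on both arrays, chromosome 1 held 11 (0.368%) and chromosome 11 held 8 (0.737%). Chromosome 4 was lowest in share, with 5 of the 100, or 0.278% of its detected loci.

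The brightest loci lay close together on the wild-type arrays. They differed by 1.11 at most on the log2 scale, and 2 of the 100 lay more than 2-fold apart, where 22.4% of all loci detected on both arrays did. Of the 100, 91 were higher on replicate 1, with a median difference of 0.31, against a median of 0.00 over all loci. That direction depended on the scaling, since 46 of the 100 were higher on replicate 1 after quantile normalization, 46 in the authors' deposited values and 41 after normexp with quantile normalization.

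**Figure D1:**
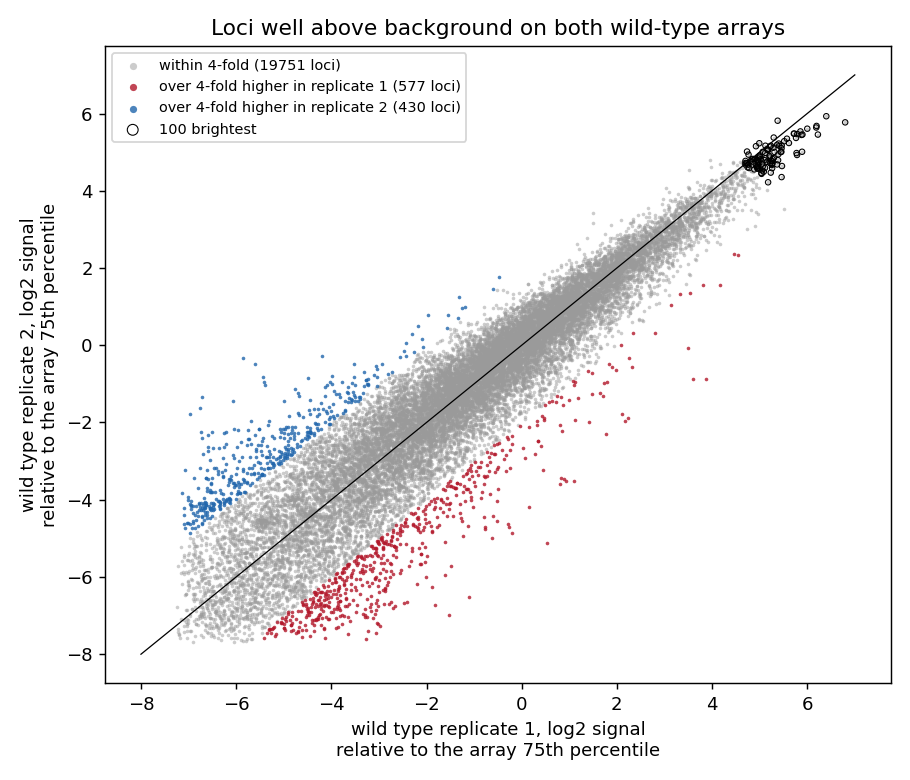
Each point is 1 of 20758 loci detected and measured on both wild-type arrays, with its level (log2 scale, 75th percentile of the array at 0) on replicate 1 (x axis) and on replicate 2 (y axis), and the line marks equal levels. Coloured points lie more than 4-fold apart, 577 higher on replicate 1 and 430 higher on replicate 2, mostly at low levels, and open circles mark the 100 brightest loci, all within 4-fold.

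Loci without a detected signal were spread over the genome, but not evenly. Detection followed the evidence behind a probe, which the probe names give. Of 32314 cDNA probes, 77.9% were detected on both wild-type arrays and 14.4% on neither. Probes tagged COMBINER_EST, 6959 in number, were detected on both arrays in 53.8% of cases and on neither in 32.8%. The 2620 probes tagged COMBINER gave 51.8% and 33.1%. Another 15 probes were tagged PREDICTION, and 9 of them were detected on neither array. No file explains these tags.

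By chromosome, the share of loci detected on neither array ran from 15.6% on chromosome 3 and 15.8% on chromosome 2 to 29.7% on chromosome 11. Chromosomes differ in how many of their loci have a cDNA probe, which was 59.4% on chromosome 11 and 74.8% on chromosome 3. Among loci with a cDNA probe alone, the undetected share was 11.3% on chromosome 2, 11.6% on chromosome 3 and 22.4% on chromosome 11, so the end points of the order differed there too. Chromosome 11 had the highest undetected share on every array, at 30.7% to 39.5% on the line arrays and 35.4% and 34.7% on the wild-type arrays.

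**Figure D2:**
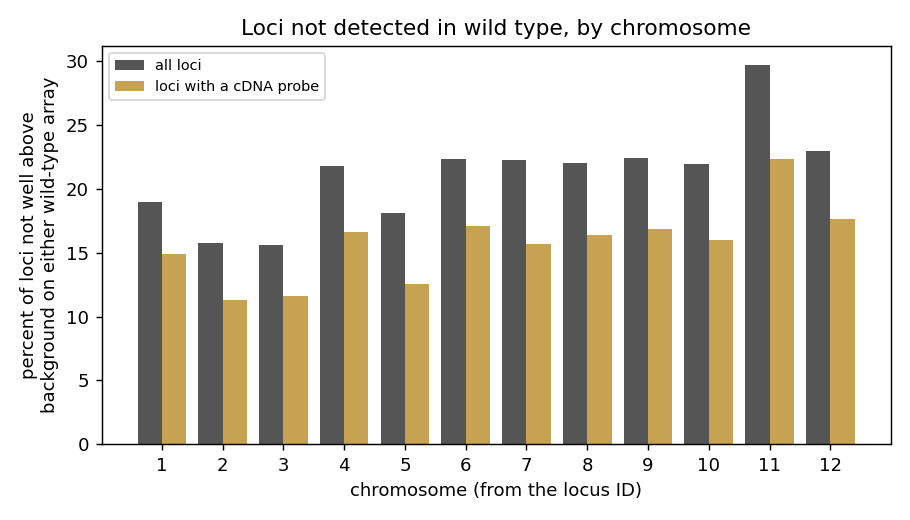
Bars give, for each of the 12 chromosomes (x axis, from the locus ID), the percent of loci detected on neither wild-type array (y axis), over all loci and over loci with a cDNA probe. Chromosome 11 is highest by both counts, at 29.7% and 22.4%, and chromosomes 2 and 3 are lowest.

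Loci with 1 probe were detected least often. Of loci with 1 probe, 25.0% were detected on neither wild-type array, against 9.35% of those with 2 and 3.49% of those with 3. The share was 4.01% with 4 probes and 3.74% with 5 or more, so it fell no further past 3. A locus counts as detected when any probe is, so part of this order follows from the count of probes itself. The undetected loci with the most probes were Os09g0537700, with 12, and Os03g0339300, with 11. Every probe of Os09g0537700 lay between -9.92 and -8.88 on the wild-type arrays, with a signal of at most 17.6. It had 2 detected probe readings over the 4 line arrays. The probes of Os03g0339300 lay between -9.99 and -8.86, with 1 detected reading over the line arrays. Both loci were thus at the floor of the measurement with every probe in wild type, which bounds their signal and does not show that no transcript was present.

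Neighbouring loci in the order of their IDs were at times undetected together. The longest such run in wild type, singled out after its values were seen, held 16 loci on chromosome 9, from Os09g0353200 to Os09g0359500. The highest level in it was -7.23 on replicate 1 and -8.43 on replicate 2. One locus of the run was detected on the line arrays, on all 4 of them. The next longest run, of 11 loci on chromosome 7, was detected on no line array. Runs detected throughout were longer, reaching 32 loci in 4 cases, on chromosomes 2, 3, 5 and 8. More loci were detected than not, which by itself makes detected runs longer, and no test was made.

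The place of a probe within its transcript went with detection. Among cDNA probes, those tagged CDS+3'UTR were detected on both wild-type arrays in 78.9% of cases, those tagged CDS in 75.4%, those tagged UTR in 66.2% and those tagged 5'UTR+CDS in 58.6%. Their median levels followed the same order, at -1.56, -2.45, -3.79 and -5.44. The 5' probes also read lower on replicate 1 than on replicate 2, with a median difference of -0.41 over 485 probes detected on both, against 0.03 over 23641 probes at the 3' end. Probes tagged CDS were lower on replicate 1 too, at -0.30 over 300 probes, and those tagged UTR lay at -0.07 over 732. The difference at the 5' end kept its direction under each of 4 other scalings, from -0.41 to -0.31.

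The wild-type arrays followed each other closely over loci and yet differed widely at single ones. Across the 20758 loci detected and measured on both, which are not independent replicates, Pearson's r was 0.934 and Spearman's rho 0.945. The median difference in size was 0.50 on the log2 scale, or 1.41-fold. More than 2-fold apart lay 4646 loci (22.4%), more than 4-fold 1007 (4.85%) and more than 8-fold 208 (1.00%). Of those past 4-fold, 577 (2.78% of loci) were higher on replicate 1 and 430 (2.07%) on replicate 2. The share past 4-fold was 3.30% within line 2 and 1.70% within line 14, against 4.85% within wild type. With 1 array on each side there is no test of any single locus.

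The spread depended on the level. With the loci ranked by mean level and split into 10 bins, 15.2% of the dimmest bin lay more than 4-fold apart, 15.4% of the second, 1.93% of the fifth and 0.337% of the brightest. In each of the brightest 2 bins, 7 loci were past 4-fold, all higher on replicate 1. The 22 locus probes printed 10 times each had a median SD of 0.109 on replicate 1 and 0.0811 on replicate 2. Between the arrays the means of the same 22 probes differed by a median of 0.19, which corresponds to an SD of 0.133. The SDs within an array are of single spots and the last is of means over 10 spots, so they are unlike measures. The levels of the 22 probes are not given, so their SDs do not describe the spread at dim loci. The regions of the array gave much the same picture, with 4.44% to 5.65% of loci past 4-fold in each of its 8 blocks.

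**Figure D3:**
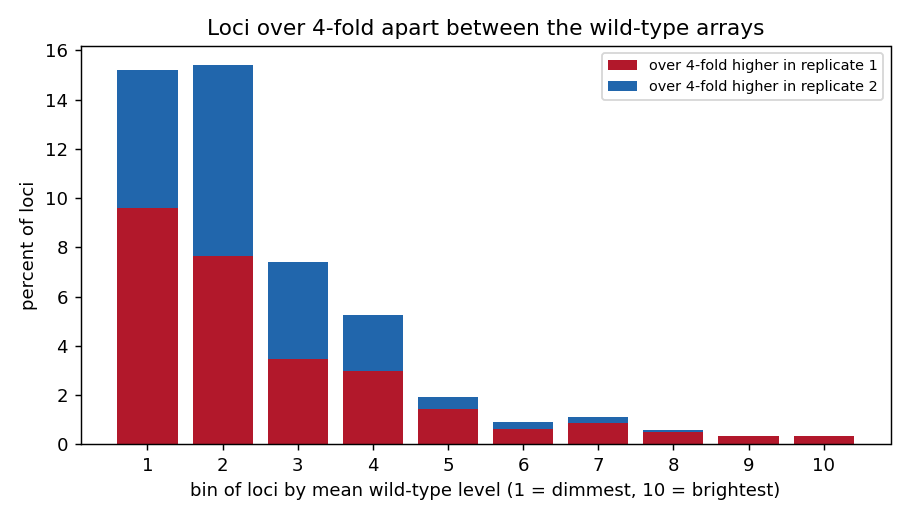
Bars give the percent of loci past 4-fold when the wild-type arrays are compared (y axis) in 10 bins of loci by mean wild-type level (x axis, from dimmest to brightest), split by the array that read higher. The share is 15.2% in the first bin and 0.337% in the last, where the loci past 4-fold are all higher on replicate 1.

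The 2 loci furthest apart in each direction were chosen by that difference and are given as values. Os05g0543000 read -4.91 and -10.76 on the line 2 arrays and -7.30 and -7.04 on the line 14 arrays, against 0.54 on wild-type replicate 1 and -5.12 on replicate 2. The -10.76 on line 2 replicate 2 was not a detected level, as it lay below the lowest of a detected probe there, -9.76. The wild-type arrays differed by 50.5-fold, and all 4 line arrays lay on the side of replicate 2. The log2 difference of 5.66 became 5.09 after normexp background correction with quantile normalization. Os05g0439000 read -3.82 and -5.08 on the line 2 arrays and -4.23 and -2.82 on the line 14 arrays, against -1.52 on wild-type replicate 1 and -6.98 on replicate 2. Here the wild-type arrays differed by 43.8-fold and the line arrays lay between them. Its log2 difference of 5.45 was 3.72 after normexp.

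In the other direction, Os08g0127100 read -2.35 and -1.58 on the line 2 arrays and -3.01 and -3.55 on the line 14 arrays, against -5.87 on wild-type replicate 1 and -0.33 on replicate 2. The wild-type arrays differed by 46.5-fold, and the 4 line arrays lay between them, 3 nearer replicate 2. The log2 difference of replicate 1 minus replicate 2 was -5.54, and -4.70 after normexp. Os01g0595900 read -2.14 and -2.45 on the line 2 arrays and -4.40 and -2.72 on the line 14 arrays, against -6.72 on wild-type replicate 1 and -1.34 on replicate 2. Its wild-type arrays differed by 41.7-fold, and 3 line arrays lay nearer replicate 2. Here the same log2 difference was -5.38, and -4.15 after normexp.

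Some loci were detected with all their probes on 1 wild-type array and with none on the other. There were 1223 such loci on replicate 1, 44 of them with more than 1 probe, and 1418 on replicate 2, 109 of them with more than 1 probe. The brightest on replicate 1 was Os04g0398700, detected on 3 line arrays at -6.28 to -5.48, against 0.10 on wild-type replicate 1 and -8.43 on replicate 2, where it was not well above background. Set against the higher of its own signal there and the lowest signal of a detected probe, it was at least 371-fold higher on replicate 1. The next, Os11g0512800, was detected on no line array and read -0.66 on wild-type replicate 1 and -10.00 on replicate 2, at least 227-fold apart.

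On replicate 2, the brightest such locus was Os02g0205500, at -0.34 and -3.60 on the line 2 arrays and -0.68 and -2.27 on the line 14 arrays, against -9.05 on wild-type replicate 1 and -1.45 on replicate 2. All 4 line arrays detected it, and the wild-type arrays lay at least 116-fold apart. Os11g0549600 read -1.65 and -1.84 on the line 2 arrays and -1.36 and -1.74 on the line 14 arrays, against -6.92 on wild-type replicate 1 and -1.74 on replicate 2. Its line arrays lay within 0.38 of replicate 2, and its wild-type arrays at least 36.2-fold apart. Each of these 4 loci had 1 probe.

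**Figure D4:**
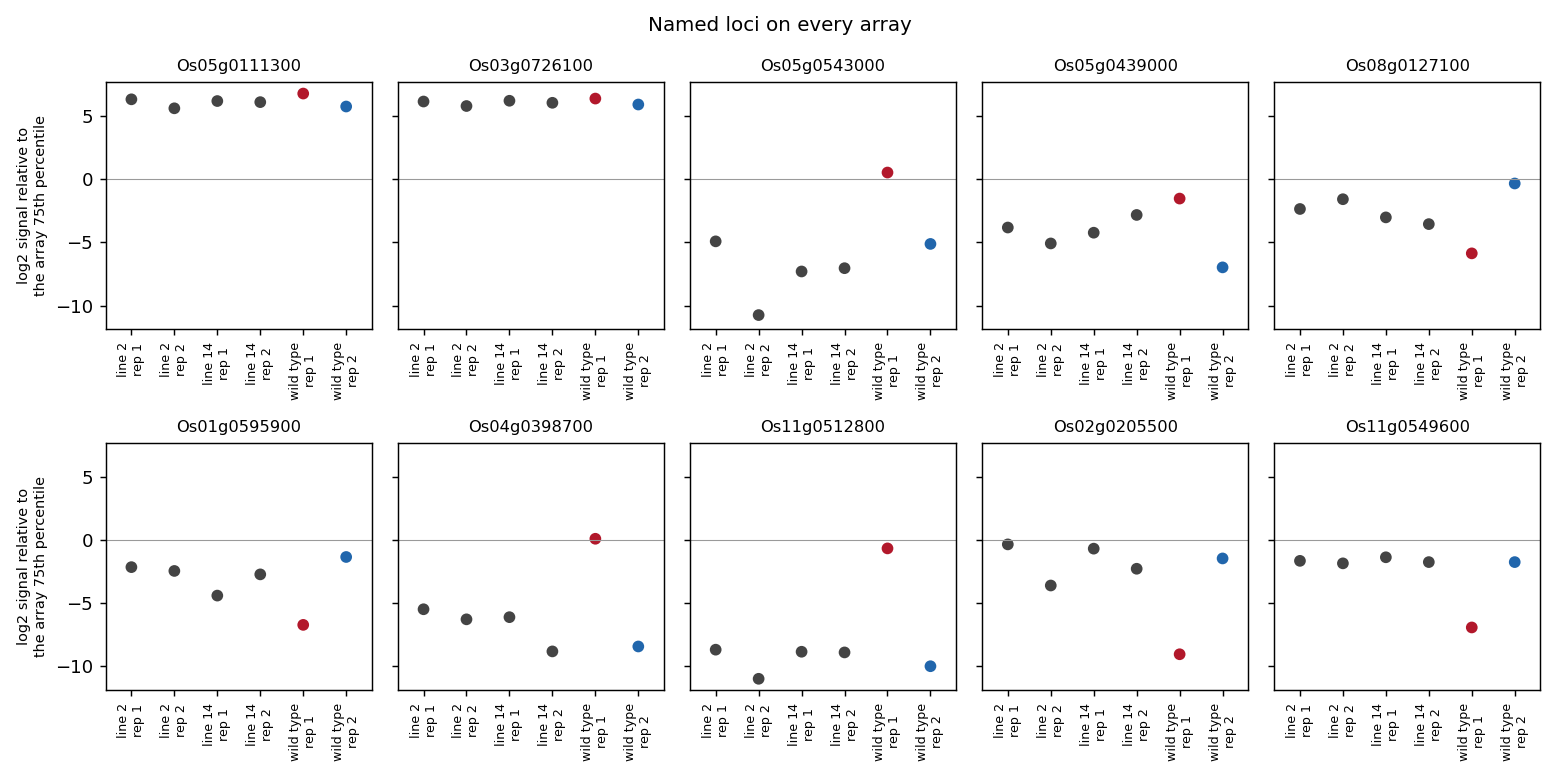
Each panel is 1 named locus, with its level (log2 scale, 75th percentile of the array at 0, y axis) on each array (x axis): the 4 line arrays in grey, wild-type replicate 1 in red and replicate 2 in blue. The first 2 panels are the brightest loci, the next 4 those furthest apart between the wild-type arrays and the last 4 those detected on 1 of them only, where Os02g0205500 and Os11g0549600 were detected on all 4 line arrays and Os11g0512800 on none.

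The line arrays more often lay on the side of replicate 2. At the 577 loci more than 4-fold higher on replicate 1, all 4 line arrays lay nearer replicate 2 in 205 (35.5%) and nearer replicate 1 in 55 (9.53%). At the 430 higher on replicate 2, all 4 lay nearer replicate 2 in 209 (48.6%) and nearer replicate 1 in 29 (6.74%). The direction held for each line array alone, with 56.3% and 74.0% of the 577 loci nearer replicate 2 in line 2 and 64.0% and 69.3% in line 14, and with 80.9% and 68.6% of the 430 in line 2 and 78.4% and 79.3% in line 14. Detection gave the same order. Of the loci detected with all probes on replicate 1 alone, 597 of 1223 were detected on no line array and 64 on all 4, and of those on replicate 2 alone, 206 of 1418 were on none and 431 on all 4. Single line arrays were the only one of the 6 to detect 78 to 570 loci, against 638 for wild-type replicate 1 and 218 for replicate 2. Single line arrays were the only one to miss 62 to 308 loci, against 463 for wild-type replicate 1 and 74 for replicate 2. Whether seeds, captured cells, amplification or hybridisation differed between the wild-type arrays was not tested.

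Probes of 1 locus mostly shared the direction of the difference. Of 2080 loci with at least 3 probes detected on both arrays, 1344 (64.6%) had all probes on 1 side. Among the 34 of them more than 4-fold apart, 32 had all probes on 1 side and 27 had all probes past 2-fold. All probes were past 4-fold at 16 loci higher on replicate 1 and 5 higher on replicate 2. Different probes of a locus nonetheless read at different levels, with a median range of 1.50 on the log2 scale over the 2080 loci. These probes read the same labelled RNA and are not replicates of it.

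Loci past 4-fold differed from the rest in their probes. A cDNA probe stood for 64.8% of those higher on replicate 1 and 66.5% of those higher on replicate 2, against 76.1% of all loci detected on both arrays. A source accession shared with another locus stood behind 5.20% and 7.67% of them, against 2.87% of all. These loci were also dimmer, and the parts of level and of probe source in the difference were not tested.

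MicroRNA precursors were mostly undetected, and they are the features of this array whose names tell their role. MicroRNAs are short RNAs cut from longer precursors that guide the silencing of target transcripts. Each of 170 precursors, of 45 families, had 3 probes, tagged 5'seq, Mature and 3'seq, tags that no file explains. Amplification of this kind usually starts from polyadenylated RNA. On that assumption, which was not tested, these values are read as signals of precursor transcripts and not as levels of mature microRNA. Of the 510 probes, the line 2 arrays detected 86 and 144, the line 14 arrays 80 and 80, and the wild-type arrays 164 and 102. Wild-type replicate 1 and line 2 replicate 2 were thus the high arrays. In wild type 87 probes were detected on both arrays and 331 on neither.

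At least 1 probe was detected on both wild-type arrays in 22 of the 45 families, and none on either array in 12. All 3 probes were detected on both arrays for 7 of the 170 precursors, and no probe on either array for 64. By tag, 32 of the 3'seq, 29 of the 5'seq and 26 of the Mature probes were detected on both, of 170 each. Repeat spots of a detected microRNA probe, 2 on each array, had a median SD of 0.248 on replicate 1 and 0.152 on replicate 2. The largest SD was 3.09 and 3.02, so the 2 spots of some probes read far apart. Under the rule used, 1 marked spot of the 2 was enough for detection, and counts that require both are not given here.

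The brightest microRNA probe in wild type was that of osa-miR441b, tagged 5'seq, at -1.14 to -0.56 on the 4 line arrays and -0.71 and -0.83 on the wild-type arrays. The next was the 3'seq probe of osa-miR408, a family that targets transcripts of copper proteins in plants, at -0.27 and -1.22 on the line 2 arrays, -0.36 and -0.54 on the line 14 arrays, against -1.01 and -1.28 on the wild-type arrays. The groups overlapped for both. The 5'seq probe of osa-miR419 read -1.09 and -1.27 on the wild-type arrays. The 3'seq probe of osa-miR414 came next by its mean and was the least steady of the 10 brightest, at -4.63 and -4.62 on the line 2 arrays and -2.68 and -1.09 on the line 14 arrays, against 0.14 on wild-type replicate 1 and -3.02 on replicate 2.

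The remaining 6 of the 10 brightest probes came from osa-miR168a, osa-miR162a, osa-miR160d and osa-miR169a. miR168 targets the transcript of ARGONAUTE1, the protein that holds the guide RNA, and its precursor osa-miR168a read -1.85 and -2.29 at the 3'seq probe and -2.07 and -2.55 at the 5'seq probe in wild type. miR162 targets the transcript of DICER-LIKE1, which cuts the precursors, and the 3'seq probe of osa-miR162a read -1.71 on replicate 1 and -3.53 on replicate 2. miR160 targets transcripts of auxin response factors, and osa-miR160d read -1.70 and -3.26 at its 5'seq probe and -1.91 and -3.69 at its 3'seq probe. The 3'seq probe of osa-miR169a, of a family that targets subunits of the transcription factor NF-Y, read -2.10 and -3.29.

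Families differed widely in how many probes were detected. For miR160, 14 of 18 probes were detected on all 4 line arrays and 15 of 18 on both wild-type arrays. For miR166, which targets class III HD-ZIP transcription factors, 18 of 39 were detected on both wild-type arrays, and for miR164, which targets NAC transcription factors, 6 of 18. Of the 12 probes for miR172, which targets AP2-type transcription factors, 3 were detected on each line 2 array and 0 on each line 14 array, against 0 on each wild-type array. None of the 6 probes of miR397, which targets laccases, was detected on any of the 6 arrays. Of 30 probes for miR167, a further family acting on auxin response factors, 1 was detected on each wild-type array and 0 on both. Precursors of a family can share or nearly share their mature sequence, so probes tagged Mature within a family are not separate measurements.

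Other families had more probes detected on wild-type replicate 1 than on replicate 2. Of 33 probes for miR156, which targets SPL transcription factors, 3 and 5 were detected in line 2 and 4 and 3 in line 14, against 16 on wild-type replicate 1 and 5 on replicate 2. Of 33 for miR399, which acts in phosphate supply, 2 and 6 were detected in line 2 and 4 and 2 in line 14, against 14 on wild-type replicate 1 and 3 on replicate 2. Of 69 for miR395, which acts in sulfate supply, 2 and 3 were detected in line 2 and 3 and 1 in line 14, against 14 on wild-type replicate 1 and 1 on replicate 2. In these 3 families wild-type replicate 1 was the highest of the 6 arrays.

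Over the 87 microRNA probes detected on both wild-type arrays, the median difference of replicate 1 from replicate 2 was 0.50, with 61 higher on replicate 1. miR160 followed that direction, with 14 of 15 probes higher on replicate 1 and a median of 1.26. miR166 ran the other way, with 4 of 18 probes higher on replicate 1 and a median of -0.71. These directions held under each of 4 other scalings, with medians of 0.34 to 0.53 for all 87 probes, 0.90 to 1.31 for miR160 and -0.73 to -0.31 for miR166. As they compare single arrays, they carry no test. Probes tagged Mature within a family are not separate measurements, so the counts for miR160 and miR166 are not counts of independent readings.

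**Figure D5:**
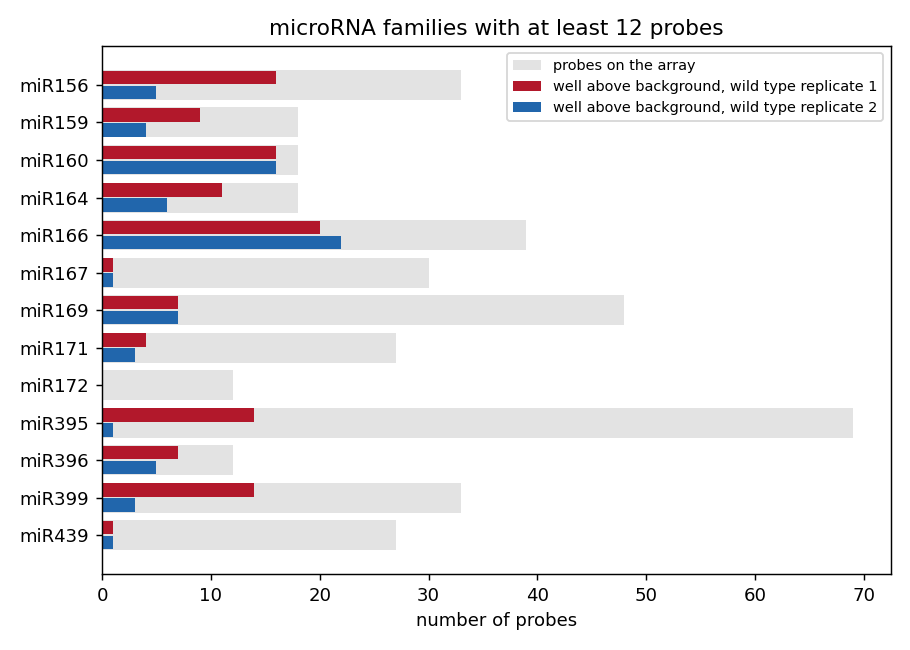
For each microRNA family with at least 12 probes (y axis), bars give the number of probes (x axis) on the array in pale grey, detected on wild-type replicate 1 in red and detected on wild-type replicate 2 in blue. miR160 has 16 of 18 probes detected on each array, miR172 has 0 of 12, and miR156, miR395 and miR399 have more probes detected on replicate 1.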

How the data were processed

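The scans were read by the authors with Agilent Feature Extraction 10.7.3.1 on a 1-colour array of design 15241, as the headers state. Per the file headers, the signal used here is a linear intensity from which the software took the background, and no scaling between arrays was applied to it. Flags of 0 or 1 mark each spot in the deposited files. A table of log2 values deposited by the authors has the same sorted values in every column to within 0.001 and a median of 10.4, and served as an alternative.

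Control spots and the outlier spots, 0.0983% to 0.183% per array, were left out. Levels were log2 signal minus the array's 75th percentile, averaged over a probe's spots. The comparison of the lines with wild type used limma 3.58.1 under R 4.3.3 on all 6 arrays. Its Benjamini-Hochberg adjustment was at 0.05, with 3 residual and 2.36 prior degrees of freedom. A trial on simulated data used independent noise and large changes. It does not bear on how far the calls rest on single arrays. Precision is limited by the number of arrays.

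The members, lists and alternatives were chosen with earlier results of these data known. The rule for named loci took the brightest, those furthest apart, those detected on 1 array, undetected loci with most probes, the 10 brightest microRNA probes and OsMADS29, and at most 2 IDs of each kind and direction, since the reference table of 39387 genes matched 0 of 29690 locus IDs. For that reason 0 of 8 marker and gene lists, with IDs from general knowledge, were formed. Normexp (offset 50) used the median spot signal. Figures were drawn with matplotlib 3.10.9.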

Additional observations from a re-analysis of the deposited data

Results flagged for a closer look

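The array carries rice control probes of its own, which entered no comparison. Those named genome carried the detection mark in a larger share of spots than the negative control on all 6 arrays, while those named random or art did not on every array. Of the 240 spots of probes named genome, 9.17% to 13.3% carried the detection mark on the line arrays, and 10.8% on wild-type replicate 1 and 9.17% on replicate 2. The share for the negative control, of 153 spots, was 0.654% to 3.27% on the line arrays, against 0.654% and 1.31% on the wild-type arrays. The probes named random reached 4.17% and 0.833% of 120 spots there, and those named art 3.33% and 0%.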

How the results depend on the processing

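With 2 wild-type arrays, levels and differences are descriptions, and dim loci limit them most. The count of 6046 loci detected on neither wild-type array became 2618 with the scanner's flag for a positive and significant signal. The 1007 loci over 4-fold apart became 419 after normexp with quantile normalization, 3591 without the filter on detection, 4646 at 2-fold and 208 at 8-fold, and the 57.3% of them higher on replicate 1 became 62.1% after normexp and 64.4% at 8-fold. Of the 100 brightest, 91 were higher on replicate 1, against 46 after quantile normalization, 41 after normexp and 46 in the authors' table. Loci with all probes on 1 side made up 74.7% with at least 2 probes and 53.9% with at least 5. Loci past 4-fold with all 4 line arrays nearer replicate 2, a count and settings added after the data were seen, made up 41.1%, and 44.6% after normexp. The fit of the lines against wild type, with 32 calls, called 4 without the filter on dim probes, 5 with slide as a block, where line 14 is absorbed by its slide, and 0 to 106 with 1 array left out, 1 without wild-type replicate 1 and 106 without replicate 2, where the lone array is assumed to vary like the others. With the replicate number as a block it gave 1. The deviations of same-numbered arrays correlated at 0.0220 to 0.110, so the numbers were not taken to pair the arrays. Scaling alternatives do not touch the flags and gave no values for detection. The other 50 recomputed counts and shares moved by less than the limit of 1.5 times or stayed within their interval. Even so, 72 of the 100 brightest loci stayed in that list when the median over a locus's probes gave its level. After normexp with quantile normalization 88 of them stayed. Some unmoved counts had little room to move, such as the 0 of the 100 brightest called in the other fits. Requiring the mark in every spot of a probe left 20779 and 6046 unchanged. The intervals were taken over loci, which are not independent replicates. Of the values of single loci and probe groups, 50 kept their direction and call, but sizes shrank after normexp for the 4 loci furthest apart, to log2 differences of 5.09 for Os05g0543000, 3.72 for Os05g0439000, -4.70 for Os08g0127100 and -4.15 for Os01g0595900. The medians of miR160 and miR166 moved after normexp, to 0.90 and -0.31.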

Other observations

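The locus with the most probes on the array, Os05g0217800, was picked out after its values were seen. Of its 54 probes, the line 2 arrays detected 31 and 32 and the line 14 arrays 31 and 31, against 54 on wild-type replicate 1 and 31 on replicate 2. The 22 probes detected on wild-type replicate 1 alone had a median level of -9.25 and -10.64 on the line 2 arrays, -8.70 and -8.82 on the line 14 arrays, against -5.10 and -9.79 on the wild-type arrays. The 31 probes detected on all 6 arrays had medians of -3.93 and -4.51 on the line 2 arrays, -3.79 and -4.14 on the line 14 arrays, against -3.41 and -4.96 on the wild-type arrays.

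One source sequence stood behind 13 loci spread over several chromosomes, 12 of which were detected on both wild-type arrays. All 12 were more than 4-fold higher on replicate 1, by 2.12 to 2.74 on the log2 scale, and so count as 12 of the 577 loci in that direction while resting on 1 sequence.

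The precursor osa-miR168a had its Mature probe at a mean wild-type level of -6.73, below its 3'seq probe at -2.07 and its 5'seq probe at -2.31. For osa-miR160a the order was different, with -4.17 at the Mature probe, -4.08 at the 5'seq probe and -7.15 at the 3'seq probe. Levels of different probes are not comparable as transcript amounts.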
